A study of Mus musculus with 18 samples.

Results

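The genes described here are 10 genes of connective tissue cells in the mouse heart. They are 5 genes commonly used to mark fibroblasts (Pi16, Dpt, Pdgfra, Tcf21 and Thy1) and 5 small leucine-rich proteoglycans (Dcn, Lum, Bgn, Fmod and Ogn). They were chosen by name: a gene was taken where the platform annotation gave its symbol to a probe set, and the probe set with the highest mean over all arrays stood for the gene. The 10 genes were represented by 23 of the 45101 probe sets on the array. All 10 were among the 13359 of 18193 named genes whose signal was high enough to be tested, and Fmod lay nearest to that limit.

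The study measured RNA from ventricular myocardium of C57Bl/6J mice on 18 arrays, 1 array per sample. Wild type C57Bl/6J mice formed the lean control group (n = 4). The other groups were ob/ob mice on the same background, which lack functional leptin, a hormone of fat cells that lowers food intake. At 6 months of age they were given 1 month of unrestricted feeding (ad libitum, n = 4), of food limited to what the leptin treated animals ate (calorie restricted, n = 5) or of leptin from an osmotic mini-pump (leptin, n = 5). The restricted and leptin groups thus ate alike and only the latter had leptin, while the ad libitum and restricted groups both lacked leptin and differed in food intake. No wild type mice under either treatment were analysed here. The age of the wild type mice is given as 6 months with the samples and as up to 8 months in the design, so genotype cannot be told apart fully from age. The labels number the samples within a group and do not say more about their source, so all p-values measure spread among these samples only, which may be technical.

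Fibroblasts make and maintain the collagen network between heart muscle cells. Small leucine-rich proteoglycans are secreted proteins that bind collagen fibrils through a curved array of leucine-rich repeats, set the width and spacing of the fibrils and hold growth factors such as TGF-beta. Decorin (Dcn) and biglycan (Bgn) carry chondroitin or dermatan sulfate chains, lumican (Lum) and fibromodulin (Fmod) belong to a class with keratan sulfate chains, and osteoglycin (Ogn, also called mimecan) to a further class. In a piece of whole tissue, fewer cells of a type and less RNA per cell cannot be told apart.

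Array medians of the signal ran from 22.3 to 31.8, and every array had been scaled to the same trimmed mean of 100, which removes differences in total signal. Signals are linear intensities in the deposited scale. They are compared between groups for the same gene, and signal levels are not compared between genes, whose probes differ. Sizes of change are compared between genes in places, and they can also depend on the probe set, as given below for Bgn. The 9 markers of ventricular heart muscle cells summed to between 51348 and 79183 on every array, and 0 of 9 were called between restricted and ad libitum fed ob/ob hearts. The restricted replicates 2 and 3 stood apart from the other arrays in Myl7, the atrial myosin light chain. Its signal was 3448 and 3548 there, against 2.52 to 674 on all other arrays. Results that rest on these arrays are given with and without them.

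Calorie restricted ob/ob hearts had less RNA for 6 of the 10 genes than hearts of ob/ob mice fed ad libitum, and for 0 of them more, while 2.46% of all tested genes were called higher. The fall was largest for Pi16 and Lum, 2.68-fold and 2.06-fold in mean signal, followed by Dpt, Thy1, Bgn and Ogn. Pdgfra, Tcf21, Dcn and Fmod did not pass the test. A gene was called at a limma adjusted p under 0.05, and 2.97% of all tested genes were called lower in this comparison. For each of these 6 genes every restricted array lay below every ad libitum array, which held for 4.88% of all tested genes. The median log2 change was -0.38 over the 10 genes and -0.00 over all tested genes. Log2 changes are differences of group means of log2(signal + 5.13), given with the standard error of the limma fit, and mean signals are given with the standard deviation over arrays.

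Pi16 (peptidase inhibitor 16) is a secreted protein that marks fibroblasts of connective tissue and vessel surroundings. Its signal was 196, 255, 156 and 245 in the ad libitum arrays and 71.7, 74.9, 70.8, 107 and 73.0 in the restricted arrays. All 5 restricted arrays lay well below the lowest ad libitum array, and restricted replicate 4 was the highest of them. The mean fell from 213 ± 45.9 (n = 4) to 79.4 ± 15.3 (n = 5), a log2 change of -1.36 ± 0.26 (limma, adjusted p = 0.00522).

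Dpt (dermatopontin), a matrix protein that binds decorin and promotes assembly of collagen fibrils, had signals of 907, 820, 763 and 805 under ad libitum feeding. Under restriction its signals were 590, 632, 622, 474 and 504. The restricted arrays again lay below all ad libitum arrays, with a narrower gap than for Pi16. Dpt changed by -0.55 ± 0.12 on the log2 scale (limma, adjusted p = 0.0155). Without ad libitum replicate 1, which had the highest Dpt signal of its group, the change was -0.50 with an adjusted p of 0.0531.

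Thy1 (CD90) is a surface glycoprotein of fibroblasts, and of T cells, held to the membrane by a lipid anchor. Its signal was 68.6, 83.8, 77.6 and 74.0 in the ad libitum arrays and 55.1, 51.4, 59.2, 50.1 and 40.4 in the restricted arrays. The groups did not overlap, and restricted replicate 5 was the lowest of all arrays. The log2 change was -0.53 ± 0.11 (limma, adjusted p = 0.00983). Of the T cell markers, 2 of 6 on the array passed the filter on low signal and 0 of these were called in this comparison. The summed T cell signal ran from 98.3 to 142 under ad libitum feeding and from 82.7 to 144 under restriction. Group means of the 2 markers that passed the filter ran from 18.3 to 21.7 for Cd3g and from 63.0 to 74.4 for Cd8a. The mean of Cd3d, a chain of the T cell receptor complex, was below the pseudocount of 5.13 in every group.

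Pdgfra, the receptor for platelet-derived growth factors on fibroblasts, and Tcf21, a transcription factor needed for cardiac fibroblasts to form, did not pass the test. Pdgfra signals were 203, 188, 165 and 297 in the ad libitum arrays and 174, 157, 198, 227 and 129 in the restricted arrays. These ranges overlapped widely, and the log2 change of Pdgfra was -0.25 with a 95% interval from -0.75 to 0.24. Tcf21 signals were 160, 162, 155 and 147 under ad libitum feeding and 143, 182, 156, 156 and 123 under restriction. For Tcf21 the restricted arrays lay on both sides of the ad libitum arrays, and the log2 change was -0.04 with a 95% interval from -0.29 to 0.21. A fall of the size seen for Pi16 or Lum lay outside both intervals. The smaller falls of Dpt (-0.55), Thy1 (-0.53), Bgn (-0.46) and Ogn (-0.30) lay inside the Pdgfra interval, which does not exclude them. The fall of Ogn lay at the edge of the Tcf21 interval.

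**Figure D1:**
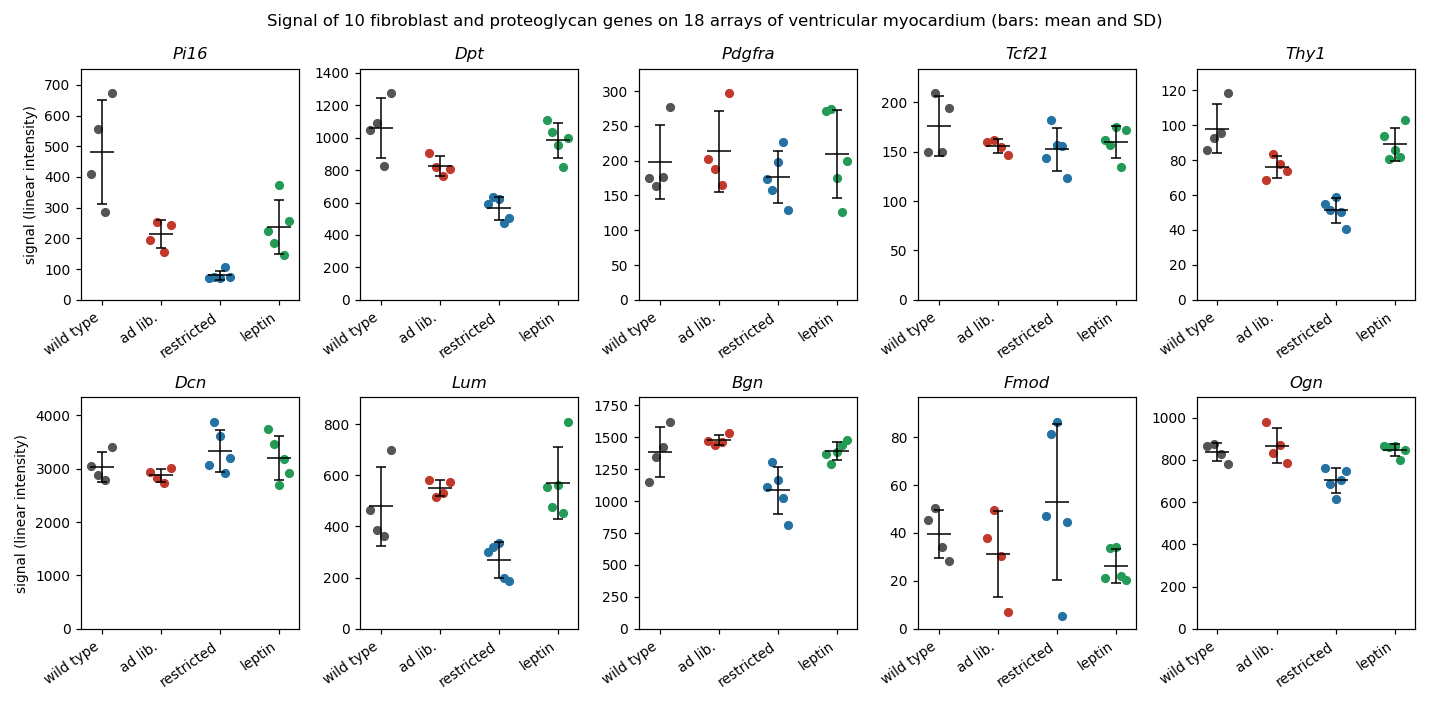
Signal of the 10 genes (linear intensity, each panel with its own axis from 0) in wild type, ad libitum, calorie restricted and leptin arrays. Points are single arrays and bars are group means with standard deviations. The restricted arrays form the lowest group for Pi16 (70.8 to 107) and Lum (186 to 334), whereas for Dcn they reach the highest signal of all arrays (3870).

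Among the small leucine-rich proteoglycans, Lum, Bgn and Ogn fell under restriction. Lum signals were 580, 517, 532 and 575 in the ad libitum arrays and 301, 319, 334, 198 and 186 in the restricted arrays. The ad libitum arrays were close together and the restricted arrays spread over a wider range below them, with replicates 4 and 5 lowest. The mean of Lum fell from 551 ± 31.4 to 268 ± 70.4, a log2 change of -1.07 ± 0.21 (limma, adjusted p = 0.00728).

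Bgn signals were 1473, 1438, 1463 and 1536 under ad libitum feeding and 1110, 1306, 1166, 1023 and 813 under restriction. The groups did not overlap, and the restricted arrays spread more widely. The log2 change of Bgn was -0.46 ± 0.12 (limma, adjusted p = 0.0295). Ogn signals were 978, 831, 871 and 786 under ad libitum feeding and 763, 687, 615, 705 and 745 under restriction. The highest restricted array came close to the lowest ad libitum array, so the groups were only just apart, and the log2 change of Ogn was -0.30 ± 0.08 (limma, adjusted p = 0.037). Bgn and Ogn were each called in 3 of the 9 fits that left out 1 array of the 2 groups, with adjusted p up to 0.0784 for Bgn and 0.117 for Ogn. Without restricted replicates 2 and 3, the change of Bgn was -0.60 (adjusted p = 0.0158) and that of Ogn -0.23 (adjusted p = 0.2).

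Dcn, the proteoglycan whose gene lies directly beside Lum, was not called. Its signals were 2932, 2828, 2738 and 3014 under ad libitum feeding and 3074, 3870, 3607, 2922 and 3193 under restriction. Of the 5 restricted arrays 4 lay above all ad libitum arrays, and the 2 highest were replicates 2 and 3, the arrays with high Myl7. For Dcn the log2 change was 0.20 with a 95% interval from -0.02 to 0.43 (limma, adjusted p = 0.312), an interval that does not reach the fall of Lum. Without restricted replicates 2 and 3 it was 0.09 (adjusted p = 0.782).

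Fmod had low signals, 38.1, 49.4, 30.3 and 6.95 under ad libitum feeding and 47.3, 81.2, 86.3, 5.45 and 44.5 under restriction. A single array in each group was near the pseudocount, and restricted replicates 2 and 3 were highest. Fmod had a log2 change of 0.55 with a 95% interval from -0.55 to 1.65, which became -0.07 without restricted replicates 2 and 3. The mean Fmod signal of these arrays was 83.8 against 32.4 in the other restricted arrays, and for Dcn the values were 3738 and 3063. In a fit with the atrial markers as a covariate, the change of Fmod under restriction was -0.33 and was not called. The part of the atrial signal in these 2 genes was not tested beyond that fit.

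The promoters of the called genes are shown because these genes fell together. RefSeq sequences (GRCm38.p6) were matched for 7 of the 10 genes, and those of Thy1, Dcn and Lum were not matched. The 120 bases before the annotated start of the 4 called genes with a match are printed 5′ to 3′, with capitals marking CANNTG (the E-box) or GGGCGG (the GC box, also in its reverse complement). All 4 lie on the plus strand, Pi16 at chr17:29318762-29318881, Dpt at chr1:164796543-164796662, Bgn at chrX:73483481-73483600 and Ogn at chr13:49607895-49608014.
Pi16: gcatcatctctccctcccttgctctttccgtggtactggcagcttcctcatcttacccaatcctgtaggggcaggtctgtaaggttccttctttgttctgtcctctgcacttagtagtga
Dpt: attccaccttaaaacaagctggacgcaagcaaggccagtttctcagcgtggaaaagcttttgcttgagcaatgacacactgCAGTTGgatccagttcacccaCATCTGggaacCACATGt
Bgn: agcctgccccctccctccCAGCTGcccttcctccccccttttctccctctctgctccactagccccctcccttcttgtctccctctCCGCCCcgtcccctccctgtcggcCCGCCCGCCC
Ogn: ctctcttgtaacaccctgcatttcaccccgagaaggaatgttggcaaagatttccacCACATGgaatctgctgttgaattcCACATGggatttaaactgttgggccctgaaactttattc
Over the 250 bases before the start, CANNTG was found in 5 of the 7 matched promoters (Bgn, Dpt, Fmod, Ogn and Pdgfra), against 66.2% of all 32851 mouse promoters in the same table. GGGCGG was found in 1 of 7, Bgn, against 32.7%, and TATAAA in 1 of 7, Ogn, against 12.4%. Both strands were searched, and overlapping matches were each counted. No motif was shared by all 4 printed promoters. Dpt held 6 copies of CANNTG and Pi16 held 0.

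Whether the proteoglycans moved by different amounts was tested on differences within each array, in which a scaling of the whole array cancels apart from the pseudocount. For each of the 10 pairs, the log2 difference between the genes was compared between the groups by an exact two-sided permutation test, and p-values were adjusted over the pairs. The log2 difference of Dcn and Lum was 3.65 under restriction and 2.38 under ad libitum feeding, a shift of 1.27 (exact permutation, adjusted p = 0.0317). Dcn moved up against Bgn by 0.67 and against Ogn by 0.50 at the same adjusted p, which is given by the smallest p this design allows (0.0159). Lum in turn moved down against Bgn, a shift of -0.61, and against Ogn, a shift of -0.77. Of the 10 pairs, 5 passed, and for each of these every restricted array lay to 1 side of every ad libitum array. With quantile normalization Dcn against Ogn shifted by 0.42 and did not pass (adjusted p = 0.0952). Bgn against Ogn, with a shift of -0.16, and all 4 pairs with Fmod did not pass. The neighbours Dcn and Lum thus differed in their change.

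Without restricted replicates 2 and 3 the shift of Dcn under restriction was 1.37 against Lum, 0.69 against Bgn and 0.32 against Ogn (exact permutation, adjusted p = 0.0952 for each), with too few arrays left for the test to pass. The shift of Lum against Bgn depended on the Bgn probe set, where sets are numbered by falling mean signal. It was -0.46 with the second set (adjusted p = 0.0317) and -0.05 with the third (adjusted p = 0.889). Dcn against Bgn shifted by 0.81 with the second Bgn set, which passed, and by 1.22 with the third, which did not (adjusted p = 0.0794). With the second set of Ogn, Dcn and Lum each still passed against it, and with the second set of Dcn, whose signal was low, Dcn passed against Lum and Ogn but not against Bgn (adjusted p = 0.0635). These probe set alternatives were chosen after seeing the data.

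At matched food intake, 6 of the 10 genes had more RNA with leptin: Pi16, Lum, Dpt, Thy1, Bgn and Ogn rose in leptin treated against calorie restricted ob/ob hearts, and 0 of the 10 fell. The difference reached 3.0-fold for Pi16 and 2.13-fold for Lum in mean signal. Of all tested genes, 7.9% were called higher and 5.72% lower. For 5 of the 6, all but Bgn, every leptin array lay above every restricted array, against 6.3% of all tested genes. The median log2 change was 0.33 over the 10 genes and -0.03 over all tested genes. This comparison uses the same restricted arrays as the one with ad libitum feeding, so the values are given side by side and neither supports the other.

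Pi16 signals in the leptin arrays were 226, 185, 375, 146 and 257. All of them exceeded the highest restricted array, and replicate 3 was the highest. Pi16 changed by 1.47 ± 0.24 on the log2 scale (limma, adjusted p = 8.79e-04). Dpt signals were 1110, 1036, 958, 822 and 999, and Thy1 signals were 93.6, 80.5, 86.0, 81.7 and 103. Both genes were above all restricted arrays by a clear gap, with log2 changes of 0.80 ± 0.12 for Dpt (adjusted p = 3.02e-04) and 0.74 ± 0.11 for Thy1 (adjusted p = 2.52e-04).

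Lum signals in the leptin arrays were 554, 476, 562, 453 and 808. Replicate 5 was highest, and the lowest leptin array still exceeded every restricted array. The log2 change of Lum was 1.09 ± 0.20 (limma, adjusted p = 0.00207). Bgn signals were 1369, 1293, 1384, 1442 and 1480, of which the lowest was just under restricted replicate 2. Its log2 change was 0.38 ± 0.11 (adjusted p = 0.032), and it was called in 4 of the 10 fits that left out 1 array, with adjusted p up to 0.0712. Ogn signals were 865, 863, 868, 799 and 847, a narrow range above all restricted arrays. Its log2 change was 0.27 ± 0.08 (adjusted p = 0.023), and 0.20 without restricted replicates 2 and 3 (adjusted p = 0.159).

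Dcn, Pdgfra, Tcf21 and Fmod were not called between leptin and restriction. Dcn signals in the leptin arrays were 3747, 3455, 2700, 3179 and 2925, on both sides of the restricted arrays, and the log2 change had a 95% interval from -0.27 to 0.15. The interval was from -0.26 to 0.67 for Pdgfra and from -0.17 to 0.31 for Tcf21. Fmod signals were 21.1, 33.8, 34.0, 21.9 and 20.4, below 4 of the 5 restricted arrays. The log2 change of Fmod was -0.59 (adjusted p = 0.478). Without restricted replicate 4, the array near the pseudocount, it was -1.13 with an adjusted p of 0.0457, and without restricted replicates 2 and 3 it was 0.03. Of the 10 proteoglycan pairs 4 shifted between these groups: Dcn against Lum by -1.15 and against Bgn by -0.44, and Lum against Bgn by 0.71 and against Ogn by 0.82 (exact permutation, adjusted p = 0.0198 for each). With the second and the third Bgn set the shift of Lum against Bgn was 0.32 and -0.23 and did not pass (adjusted p = 0.068 and 0.0893). With these Bgn sets it was Bgn against Ogn that passed, with shifts of 0.50 and 1.04. Bgn against Fmod also passed with the third Bgn set (1.91, exact permutation, adjusted p = 0.0476). Dcn against Ogn passed with the second Ogn set (-0.40, adjusted p = 0.0159). Dcn against Bgn passed with every Bgn set, but not with the second Dcn set (-0.48, adjusted p = 0.132). Without restricted replicates 2 and 3, Dcn shifted by -1.25 against Lum and by -0.46 against Bgn (adjusted p = 0.0714 for both).

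**Figure D2:**
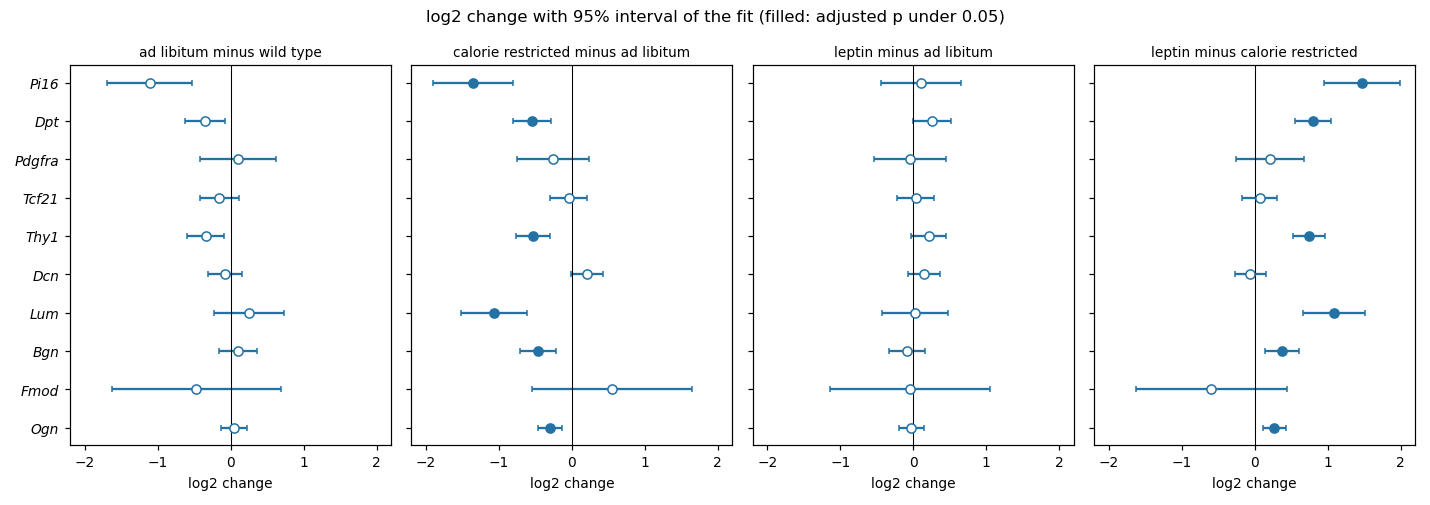
Log2 change of the 10 genes with 95% intervals, from the limma fit over 18 arrays. The comparisons drawn are ad libitum against wild type, restriction against ad libitum, leptin against ad libitum and leptin against restriction. Filled symbols mark an adjusted p under 0.05. Calorie restriction against ad libitum feeding has 6 genes called lower, leptin against restriction 6 called higher, and leptin against ad libitum feeding has 0 called, with changes from -0.09 to 0.25.

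Between leptin treated and ad libitum fed ob/ob hearts, 0 of the 10 genes were called by limma, and 0 had an unadjusted p under 0.05, against 0.644% and 13.6% of all tested genes. The log2 changes ran from -0.09 for Bgn to 0.25 for Dpt, and none of the 10 had groups without overlap, against 5.34% of all tested genes. The 95% intervals were from -0.44 to 0.66 for Pi16, from -0.43 to 0.48 for Lum and from -0.02 to 0.45 for Thy1. A difference as large as that between leptin and restriction lay outside each of these intervals.

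Against wild type hearts, 4 of the 10 genes were lower in calorie restricted ob/ob hearts, where 6.24% of all tested genes were called lower. Pi16 signals in the wild type arrays were 409, 556, 286 and 672, and their mean was 6.06-fold that of the restricted arrays, a log2 change of -2.47 ± 0.26 (limma, adjusted p = 2.94e-05). Every wild type array exceeded every restricted array for Pi16 by a wide gap. Wild type signals of Dpt were 1048, 1088, 827 and 1273. Dpt changed by -0.89 ± 0.12 (adjusted p = 3.04e-04) and Thy1 by -0.87 ± 0.11 (adjusted p = 1.57e-04). For Pi16, Dpt and Thy1 the wild type arrays lay above the restricted arrays without overlap, as they did for Lum and Ogn. Groups apart in this direction were found for 6.9% of all tested genes. The other fibroblast markers overlapped and were not called, Pdgfra with -0.15 (limma, adjusted p = 0.768) and Tcf21 with -0.20 (adjusted p = 0.349). Dcn, with 0.13, and Fmod, with 0.08, were not called either. Wild type signals of Lum were 466, 387, 362 and 700, of which the lowest came close to the highest restricted array. Lum changed by -0.82 ± 0.21 (adjusted p = 0.0207), and its adjusted p was 0.0744 without wild type replicate 4, the array with the highest Lum signal of its group, and 0.0503 without restricted replicate 5. Ogn, with a change of -0.25 (adjusted p = 0.0519), and Bgn, with -0.36 (adjusted p = 0.0618), did not pass. Both were near the threshold, and each was called in 3 of 12 alternative settings. Without restricted replicates 2 and 3, Bgn changed by -0.49 (adjusted p = 0.0235), and the second Bgn probe set changed by -0.50 (adjusted p = 0.0464). Other cell markers also differed here. Of 9 macrophage markers 7 were lower, with a median log2 change of -0.84 and summed signals of 2456 to 4320 in wild type against 1484 to 2140 under restriction. Of 9 ventricular heart muscle markers all 9 had a change above 0, with a median of 0.27. By limma 0 of them passed, while 7 were below 0.05 before adjustment. Their part in the changes of the 10 genes was not tested.

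Obesity with unrestricted feeding was compared with wild type on the same scale. Of the 10 genes, 0 were called by limma between ad libitum ob/ob and wild type hearts and 3 had an unadjusted p under 0.05, against 0.299% and 10.3% of all tested genes. For Pi16 and Thy1 every ad libitum array lay below every wild type array, which held for 3.41% of all tested genes. Pi16 had a mean of 481 ± 169 in wild type against 213 ± 45.9, a log2 change of -1.11 ± 0.27 (adjusted p = 0.117). Thy1 signals were 85.7, 92.8, 95.7 and 118 in wild type, and the change was -0.34 ± 0.12 (adjusted p = 0.299). The third gene was Dpt, with a change of -0.35 and an adjusted p of 0.354. For all 5 proteoglycans the 95% interval of this change included 0, and for Lum, with a change of 0.25, it ran from -0.23 to 0.73.

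Leptin treated and wild type hearts differed by limma in 0 of the 10 genes, and 1 gene, Pi16, had an unadjusted p under 0.05, against 0.00749% and 9.99% of all tested genes. The mean of Pi16 was 238 ± 87.5 with leptin against 481 ± 169 in wild type, and the log2 change was -1.0 ± 0.26 (adjusted p = 0.298). The highest leptin array, at 375, lay above the lowest wild type array, at 286, so the groups overlapped. The order of the group means of Pi16, Dpt and Thy1 was thus wild type, leptin, ad libitum, restricted, of which the neighbours did not differ past the threshold except for the step down to restriction. Wild type replicate 4 had the highest signal of all 18 arrays in 4 of the 10 genes, and restricted replicate 5 had the lowest in 4.

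**Figure D3:**
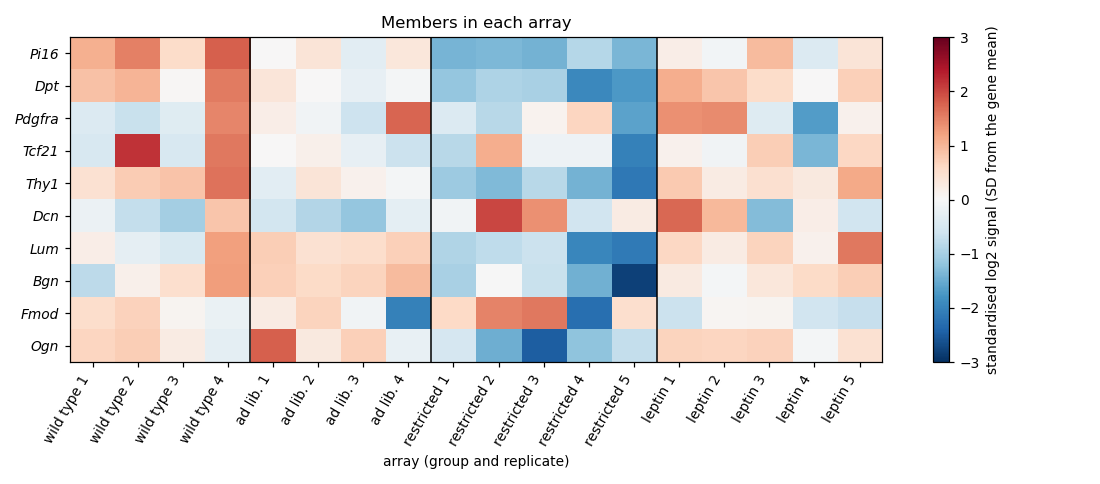
Signal of the 10 genes on each of the 18 arrays as a standardised log2 value, with 0 at the mean of the gene over all arrays and 1 unit equal to its standard deviation. The restricted arrays are low for Pi16, Dpt, Thy1, Lum and Ogn, and for Bgn apart from restricted replicate 2, which lies near 0. Restricted replicates 2 and 3 are high for Dcn and Fmod, and wild type replicate 4 has the highest signal in 4 genes.

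Where a gene had several probe sets, the others were fitted together with every probe set on the array. Bgn had 3 sets above the filter. The second Bgn set also fell under restriction, by 0.61 on the log2 scale (limma, adjusted p = 0.0303), and rose with leptin by 0.77 (adjusted p = 0.0023). The third Bgn set had the widest spread, with a change of -1.02 under restriction that did not pass (adjusted p = 0.0908) and a rise of 1.31 with leptin (adjusted p = 0.00987). The size of the Bgn change thus differed between sets, from 0.38 to 1.31 for leptin against restriction. The other set of Ogn changed by -0.31 and 0.34 in these comparisons and passed in neither (adjusted p = 0.204 and 0.0765), and in this fit the first Ogn set had an adjusted p of 0.0514 under restriction. The 4 other tested Fmod sets all had a positive change under restriction and a negative change with leptin, and none passed. The second Dcn and Tcf21 sets and the other Pdgfra sets were not called in either comparison, and the second Pi16 set was below the filter.

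Related genes were counted on lists, some of which share genes. Of the other fibroblast markers, 12 of 33 tested fell under restriction and 1 rose, with a median log2 change of -0.31. Smoc2, a secreted calcium-binding matrix protein, fell by 0.92 (limma, adjusted p = 1.14e-04), Islr by 0.81 and Cd34, a surface sialomucin also found on endothelium, by 0.72. Dpep1, a membrane dipeptidase, rose by 0.50 (adjusted p = 7.78e-04). With leptin against restriction 17 of the 33 rose and 1, Dpep1, fell, with a median of 0.50.

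The collagens that the proteoglycans bind had a larger median change than the other lists of connective tissue genes. Col1a1 and Col1a2 are also counted among the fibroblast markers. Of 10 tested, 8 fell under restriction and 8 rose with leptin against restriction, with medians of -1.12 and 1.01. Col3a1, the fibrillar collagen of pliable tissue, had a mean signal of 818 under ad libitum feeding, 137 under restriction and 910 with leptin. Its log2 change was -2.57 ± 0.37 under restriction (limma, adjusted p = 6.81e-04). The type VI collagen genes Col6a1, Col6a2 and Col6a3, whose product forms beaded filaments around cells, fell by 1.04, 1.22 and 1.42. Each of these falls was larger than those of Bgn and Ogn in log2 change, and that difference was not tested.

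The remaining small leucine-rich proteoglycans included 7 tested genes, of which 1 fell under restriction. This was Aspn (asporin), whose mean signal was 162 under ad libitum feeding, 86.2 under restriction and 168 with leptin. Its log2 changes were -0.88 ± 0.17 (limma, adjusted p = 0.00489) and 0.91 ± 0.16 (adjusted p = 0.00112). Prelp, with -0.43 under restriction (adjusted p = 0.056), and Podn, with 0.51 (adjusted p = 0.272), did not pass. In the RefSeq order of genes (GRCm38.p6), Dcn, Lum, Kera and Epyc are neighbours, as are Ecm2, Aspn, Omd and Ogn, and Optc, Prelp and Fmod. In the clusters of Dcn and Ogn, called genes lay beside genes without a call, such as Lum beside Dcn, or Aspn beside Ecm2, whose change under restriction was 0.01. In the cluster of Fmod no gene was called in either comparison.

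**Figure D4:**
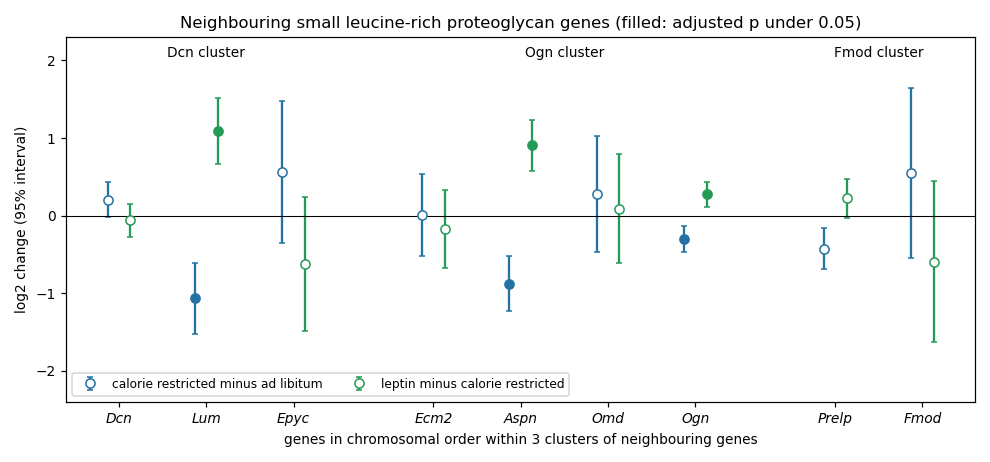
Log2 changes with 95% intervals for small leucine-rich proteoglycan genes in 3 clusters of neighbouring genes, for calorie restriction against ad libitum feeding and for leptin against calorie restriction. Filled symbols mark an adjusted p under 0.05, and Kera and Optc were under the filter and are not drawn. Lum, Aspn and Ogn are called in both comparisons, while Dcn (0.20 and -0.06) and Ecm2 (0.01 and -0.18) are called in neither.

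The enzymes that build the sugar chains of proteoglycans had few calls. Of 20 tested, 0 passed limma's test under restriction (4 had an unadjusted p under 0.05), with a median log2 change of -0.03. With leptin against restriction 1 rose (Dsel, an epimerase of dermatan sulfate, by 0.57) and 1 fell (B4galt7, an enzyme of the linker to the core protein). B4galt7 is outside the naming rule and was named after its value was seen. Of 6 tested proteases that process these proteins, 1 passed under restriction: Mmp2, a gelatinase, fell by 0.70 (limma, adjusted p = 0.0188) and was higher with leptin by 0.90.

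The listed genes of PDGF ligands and of the partner receptor of Pdgfra numbered 5. By limma, 0 of 5 passed under restriction (with 1 at an unadjusted p below 0.05), and with leptin against restriction 3 rose: Pdgfb by 0.58, Pdgfd by 0.31 and the receptor gene Pdgfrb, which marks pericytes, by 0.45. Pdgfra was called in neither comparison. Of 16 tested genes of activated fibroblasts, 2 fell under restriction (Postn, the matrix protein periostin, by 0.94 and Fap, a membrane protease, by 0.65) and 1 rose (Tagln, a smooth muscle actin-binding protein, by 0.59). With leptin against restriction 6 of the 16 rose and 0 fell.

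Markers of some other cells moved with these genes, and those of others did not. Under restriction the median log2 change was -0.49 for macrophage, -0.21 for endothelial, -0.57 for blood, -0.09 for valve and -0.03 for T cell markers. It was 0.03 for smooth muscle and pericyte, 0.09 for ventricular heart muscle and 0.11 for B cell markers. Schwann cell, adipocyte and epicardial markers had medians of 0.12, 0.17 and 0.32. Some of these lists had only 2 tested genes. Of 9 macrophage markers, 3 fell under restriction (C1qb, Adgre1 and Csf1r) and 7 rose with leptin against restriction. The summed macrophage signal ran from 2263 to 2864 under ad libitum feeding, from 1484 to 2140 under restriction and from 2503 to 3741 with leptin, and 0 of the 9 markers had a group mean at or under the pseudocount. Of 9 endothelial markers, 2 fell under restriction (Kdr and Tie1) and 3 rose with leptin, with summed signals of 2938 to 3646, 2535 to 2853 and 3144 to 3585. Their part in the changes of the 10 genes was not tested. Of 9 markers of smooth muscle and pericytes, 1, Tagln, rose under restriction and 3 rose with leptin against restriction. Of 6 atrial markers all 6 had a change above 0 under restriction, with a median of 1.81. By limma 0 of them passed, while 4 were below 0.05 before adjustment. With leptin against restriction 1, Stard10, fell, and all 6 had a change below 0, with a median of -1.62. Without restricted replicates 2 and 3, 5 of the 10 genes were called lower under restriction and 5 higher with leptin, in each case without Ogn. In that fit 358 and 1029 of the 13359 tested genes were called in these 2 comparisons.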

How the data were processed

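RNA from 18 samples was measured on 1-colour oligonucleotide arrays. The authors deposited 1 linear intensity per probe set and array, which per the submitters' processing notes came from MAS5. The MAS5 version was not given in the sources used here. Of 45101 probe sets, 64 controls were left out, 34945 had 1 gene symbol, 932 had several and 9160 were not listed. Entrez identifiers of 34741 sets matched RefSeq (GRCm38.p6), and 0 symbols changed. Each gene took its probe set with the highest mean (18193 genes). Values were log2(signal + 5.13), the pseudocount being the 20th percentile of all signals. This scale understates changes of low genes. A gene was tested where its mean reached 4.36, the 40th percentile, which gave 13359 genes.

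One limma fit (R 4.3.3, limma 3.58.1) held all 18 arrays with a coefficient per group and empirical Bayes moderation. The tests of 6 contrasts were two-sided with Benjamini-Hochberg adjustment over all tested genes and a threshold of 0.05. It was tested on simulated data. Pairs of proteoglycans were compared with exact permutation tests (scipy 1.17.1), a choice made after seeing the data. All 10 genes were named with every probe set, and from each list up to 4 genes with the smallest p in calorie restriction against ad libitum feeding. The genes and lists were chosen with earlier results of these data known. The number of arrays limits the precision. Replicate numbers of the titles did not pair arrays of different groups: the correlation of their deviations was over 0.1 in 1 of 24 pairs (-0.18 to 0.34). Alternatives were the pseudocount (1 or 20), quantile normalization, the filter, the choice of probe set, a fit of 2 groups, an atrial covariate, leaving out restricted replicates 2 and 3, array weights, a replicate block and leaving out each array. Protein sequences were not used here.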

Additional observations from a re-analysis of the deposited data

Results flagged for a closer look

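In 3 of 40 groups of 4 or 5 arrays a single array lay far from the others of its group, where chance gives about 1 in 20, or 2. Pi16 was 106.57 in restricted replicate 4, against 70.8 to 74.9 in the other restricted arrays, and still below all ad libitum arrays. Pdgfra was 277.17 in wild type replicate 4, against 164 to 176 in the other wild type arrays. Fmod was 5.4495 in restricted replicate 4, against 44.5 to 86.3 in the other restricted arrays, and it was this array whose absence brought the change of Fmod with leptin past the threshold. No cause was tested.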

How the results depend on the processing

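Pi16, Thy1 and Lum were called lower under restriction in all 12 alternative settings and all 9 fits without 1 array, and Pi16, Dpt, Thy1 and Lum higher with leptin against restriction in all 12 settings and all 10 such fits. Dpt was called under restriction in all 12 settings and 8 of the 9 fits. Dpt, Thy1 and Lum had 1 probe set each, so the mean of all probe sets could not check their calls by another set. The calls of Bgn and Ogn held less often: under restriction in 10 and 7 of the 12 settings, and with leptin against restriction in 7 and 9. Without 1 array, the number of genes called was 3 to 6 for restriction against ad libitum feeding, 5 to 6 for leptin against restriction, 3 to 5 for restriction against wild type and 0 in the other comparisons. The 3 calls for restriction against ad libitum feeding came without ad libitum replicate 1, where Dpt, Bgn and Ogn were lost. With all 18 arrays, 5.43%, 13.6% and 11.3% of all tested genes were called in the first 3 of these comparisons. The shares in the fits without 1 array are not given here. In the fit with a replicate block, where the numbers do not pair the samples, 5, 5 and 3 genes were called in the first 3 comparisons, without Bgn in the first and second and without Lum in the third, and 0 in the others. Of all tested genes, 512, 1574 and 1230 were called in the first 3 comparisons of that fit. Of 18 arrays, 2 correlated best with an array of their own number.

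Apart from Lum against Bgn, changes of sign concerned values that were not called, and the cause was not tested. For Fmod, the atrial covariate gave 0.052 for ad libitum against wild type, -0.33 for restriction against ad libitum, 0.20 for leptin against restriction and -0.28 for restriction against wild type. Leaving out restricted replicates 2 and 3 gave -0.070, 0.028 and -0.54 in the last 3 of these. For leptin against ad libitum feeding it was 0.0057 with pseudocount 1 and 0.021 with quantile normalization. Dcn turned for leptin against restriction (0.026 with the atrial covariate, 0.055 without those replicates) and, with quantile normalization, against wild type for restriction (-0.0081) and leptin (-0.058, with Bgn at -0.032). The mean of all probe sets turned Tcf21 for restriction against ad libitum (0.054), Pdgfra for restriction against wild type (0.035), and Bgn (0.12) and Ogn (0.0033) for leptin against ad libitum. Pdgfra in the last comparison was 0.019 with array weights and 0.0075 with the replicate block. The pair Dcn and Fmod shifted by 0.16 without restricted replicates 2 and 3, and Lum against Bgn with leptin by -0.23 with the third Bgn set.

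Single arrays turned the sign in these ranges. For ad libitum against wild type they were -0.011 to 0.093 for Ogn and -0.063 to 0.27 for Pdgfra, and for restriction against ad libitum -0.11 to 0.029 for Tcf21. For leptin against ad libitum they were -0.51 to 0.22 for Fmod, -0.072 to 0.033 for Ogn, -0.11 to 0.096 for Lum, -0.070 to 0.26 for Pi16, -0.15 to 0.12 for Pdgfra and -0.00020 to 0.093 for Tcf21. Against wild type they were -0.16 to 0.62 for Fmod and -0.24 to 0.021 for Pdgfra under restriction, and -0.050 to 0.23 for Pdgfra, -0.066 to 0.099 for Bgn and -0.011 to 0.043 for Ogn with leptin. The shift of Dcn against Fmod ran from -0.84 to 0.14 (without ad libitum replicate 4) and that of Bgn against Ogn with leptin from -0.016 (without restricted replicate 5) to 0.18. With fewer arrays the smallest possible adjusted p of the pair tests exceeds the threshold for some sizes, so at those sizes lost pair calls say nothing about stability.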

Other observations

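The genes most like the mean of the 10 genes over the arrays were, by Pearson correlation with the mean of their standardised log2 values (n = 18), C1qc (0.958), Fndc1 (0.940), Col3a1 (0.923), Ctss (0.922) and Cd74 (0.918). This mean does not describe each of the 10 genes. Their correlations with the mean of the other members ran from -0.13 for Fmod and -0.12 for Dcn to 0.94 for Dpt. C1qc, Ctss and Cd74 are genes of the immune system that macrophages express at high level, and Fndc1 encodes a protein with fibronectin domains. The arrays share their groups and their scaling, so these values are a description. C1qc itself was higher with leptin than under restriction by 0.82 (limma, adjusted p = 0.0145), and its change under restriction was -0.50 (adjusted p = 0.228).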
